A study of Rattus norvegicus with 12 samples.

Results

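The lowest dose of cephaloridine, 150 mg/kg, was set against saline vehicle in rat kidney cortex. Cephaloridine is a cephalosporin antibiotic that proximal tubule cells take up from the blood and that injures them at toxic doses; the study covered subtoxic and toxic doses. The comparison used 6 of the 12 samples, chosen by their labelled dose: low 1 to 3 (150 mg/kg) and control 1 to 3 (saline, 0 mg/kg). All 12 animals were male Fisher 344 rats aged 8 weeks, killed 24 h after a single intravenous injection, and each gave 1 single-colour Agilent array of total RNA from kidney cortex. The middle (300 mg/kg) and high (600 mg/kg) groups, also of 3 animals each, enter only where doses are set side by side.

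Glucuronosyltransferases and glutathione S-transferases are conjugating enzymes: they attach glucuronic acid or glutathione to drugs and reactive products, which export pumps then move out of the cell. Many of these genes, with NAD(P)H quinone dehydrogenase, are targets of the transcription factor NRF2, which binds the antioxidant response element in their promoters. Cyclins, mitotic kinases and spindle proteins are made by the few tubule and other cells that divide in a healthy adult kidney; their genes carry CCAAT boxes and a cell cycle homology region near the start. Immediate early genes such as Fos and Egr1 encode factors that appear within minutes of a stimulus and fade quickly.

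The signals were alike across arrays. Median signals ran from 68.2 to 69.8 on the low arrays and from 67.7 to 71.7 on the controls, between 59.2% and 61.8% of probes were well above background on low arrays and between 59.6% and 60.9% on controls, and 0 spots were saturated. Low 1 shared slide 1 with all 3 controls, while low 2 and low 3 lay on slides 2 and 3, each with 1 middle-dose array, and slide 2 was scanned on another day. All 12 proximal tubule markers were measured, and Slc34a1, the phosphate carrier that marks this segment, had log2 signals of 6.41 to 6.50 in low and 6.40 to 6.49 in control animals. Levels below are log2 processed signals minus the 75th percentile of the array, so that 0 is that percentile; they are compared between samples and not between genes.

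At 150 mg/kg 21 of 20760 tested genes passed the test (0.101%, limma, Benjamini-Hochberg adjusted p under 0.05). Of these 12 were higher (0.0578%) and 9 lower (0.0434%) than in control. At that share most gene lists of the sizes used below would hold 0 calls, so 0 calls does not show that a list was unchanged. The higher genes were led by conjugating enzymes, with Ugt2b7, Gstm1 and Ugt1a6 past 2-fold, and the lower ones by genes of mitosis, none past 2-fold. The probe named Atad1 was the only other one past 2-fold, for 4 in all. Of the 21, 18 could be named and 3 had only a clone or transcript identifier. Sizes were small elsewhere: the median size of change was 0.07 on the log2 scale over all tested genes and 0.73 among those called. Fitted to these 6 arrays alone, limma called 0 genes, with 2544 at an unadjusted p under 0.05 (2092 in the 12-array fit, 10.1% of those tested), and leaving out 1 array at a time gave from 5 calls (without low 2) to 46 (without low 1). With slide as a block, which compares low 1 alone with the controls of its own slide, 7 genes were called, all higher, 3 of them among the 21: Ugt2b7, Ugt2b35 and Acaa1b. Every p from that fit takes its spread from all groups and assumes that this 1 low animal varies like them.

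**Figure D1:**
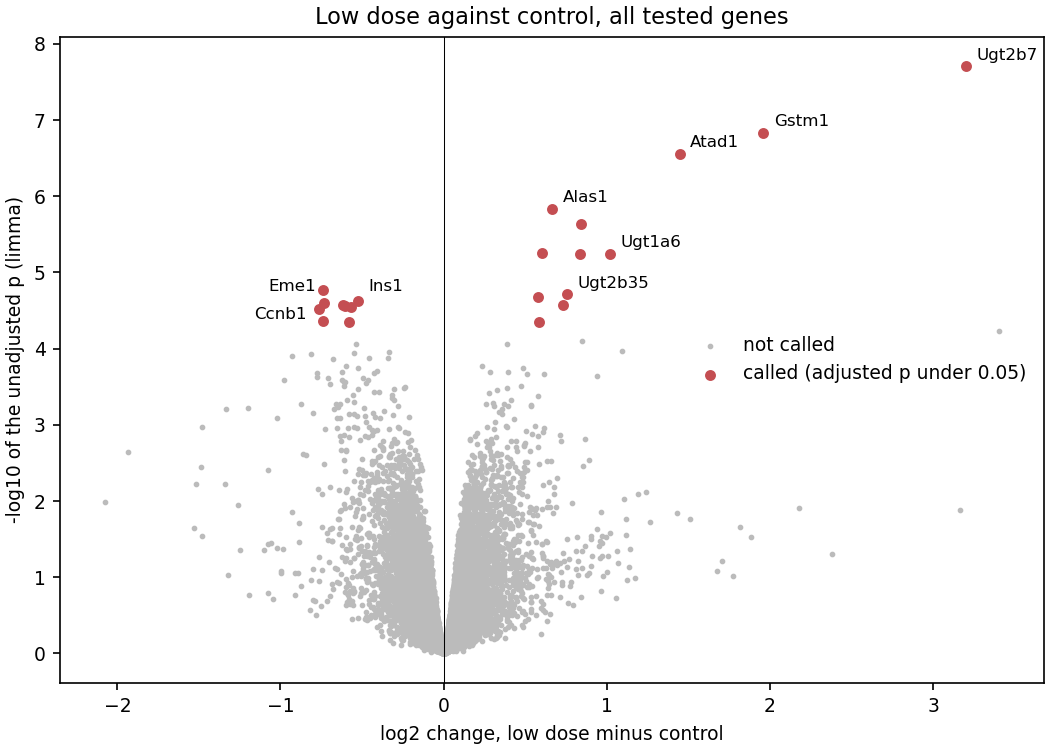
Each point is 1 of 20760 tested genes; the x axis gives the log2 change, low dose minus control, and the y axis the negative log10 of the unadjusted limma p. The 21 called genes (red) are 12 to the right of 0, up to 3.20 for Ugt2b7, and 9 to the left, down to -0.76 for Ccnb1.

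Promoters of 6 called genes are shown for the motifs that NRF2 and cell cycle factors are known to bind. They are the 250 bases before the annotated start, 5′ to 3′ on the gene's strand, from RefSeq (GRCr8), with matches on either strand in capitals. In the first pair the capitals mark the core of the antioxidant response element, searched as TGACNNNGC.
Pir, chrX:33851050-33851299, minus strand: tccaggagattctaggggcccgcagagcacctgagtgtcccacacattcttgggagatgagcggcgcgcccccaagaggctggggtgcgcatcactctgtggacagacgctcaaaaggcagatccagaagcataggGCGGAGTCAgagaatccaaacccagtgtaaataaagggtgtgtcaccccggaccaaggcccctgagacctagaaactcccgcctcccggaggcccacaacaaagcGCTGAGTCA
Gstp1, chr1:210769706-210769955, minus strand: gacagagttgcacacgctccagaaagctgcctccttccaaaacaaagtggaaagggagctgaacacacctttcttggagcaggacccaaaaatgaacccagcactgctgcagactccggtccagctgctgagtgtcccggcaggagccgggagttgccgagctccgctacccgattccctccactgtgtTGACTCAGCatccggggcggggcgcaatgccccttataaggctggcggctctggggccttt
In the next 4 the capitals mark CCAAT and the cell cycle homology region TTTGAA, which do not overlap here.
Ccnb1, chr2:33655226-33655475, minus strand: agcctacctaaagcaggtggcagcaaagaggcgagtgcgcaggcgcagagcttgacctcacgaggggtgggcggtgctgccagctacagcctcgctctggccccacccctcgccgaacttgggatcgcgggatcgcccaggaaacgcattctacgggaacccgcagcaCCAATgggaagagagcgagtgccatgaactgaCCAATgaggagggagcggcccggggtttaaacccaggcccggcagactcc
Prc1, chr1:143659231-143659480, plus strand: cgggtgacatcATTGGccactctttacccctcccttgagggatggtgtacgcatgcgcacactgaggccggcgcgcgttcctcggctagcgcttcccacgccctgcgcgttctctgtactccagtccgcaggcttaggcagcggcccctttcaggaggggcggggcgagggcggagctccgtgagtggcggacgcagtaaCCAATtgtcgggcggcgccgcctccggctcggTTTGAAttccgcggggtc
Pttg1, chr10:28406327-28406576, minus strand: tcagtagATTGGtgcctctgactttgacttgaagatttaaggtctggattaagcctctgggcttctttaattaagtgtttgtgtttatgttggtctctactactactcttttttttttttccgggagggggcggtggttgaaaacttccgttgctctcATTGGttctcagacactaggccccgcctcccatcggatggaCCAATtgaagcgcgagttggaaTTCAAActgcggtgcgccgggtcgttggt
Ccnf, chr10:13783670-13783919, minus strand: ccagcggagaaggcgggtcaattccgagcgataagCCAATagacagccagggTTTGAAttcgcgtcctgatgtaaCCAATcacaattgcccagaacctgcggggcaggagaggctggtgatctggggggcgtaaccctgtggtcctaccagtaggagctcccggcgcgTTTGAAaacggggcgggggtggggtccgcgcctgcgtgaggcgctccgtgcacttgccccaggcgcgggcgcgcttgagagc
Of the 18 named called genes 17 had a promoter in the reference table, 10 higher and 7 lower. The antioxidant core was present in 2 of the 10 higher genes (20%), the 2 printed, and in 0 of the 7 lower genes, against 12.5% of the 9009 promoters of tested genes. CCAAT was present in 5 of the 7 lower genes (71.4%), the 4 printed and Ins1. TTTGAA was present in 4 of the 7 (57.1%). In the 10 higher genes CCAAT was present in 4 (40%) and TTTGAA in 2 (20%). Of tested genes' promoters 35.8% held CCAAT and 10.6% TTTGAA. In Prc1, Pttg1 and Ccnb1 the CCAAT nearest the start lay 50, 51 and 50 bases before it at its far end. Among members of the whole mitosis list with a promoter, 15 of 19 held CCAAT (78.9%) and 9 of 19 TTTGAA (47.4%). Among members of the NRF2 and glutathione list, 7 of 27 held the antioxidant core (25.9%). A match is a stretch of letters and not a measured binding site.

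Of the genes called, the glucuronosyltransferase gene Ugt2b7 differed most. Its enzyme, listed under a provisional name in the array design, attaches glucuronic acid to drugs and steroids. The gene had log2 signals of 1.61, 1.60 and 2.07 in low 1, 2 and 3, against -1.85, -1.37 and -1.09 in controls 1, 2 and 3. The lowest low animal stood well above the highest control, and the gene was 9.19-fold higher (log2 3.20 ± 0.21, SE, n = 3 each; limma adjusted p = 0.00041). It kept its call in all 6 fits that left out an array. Blocked by slide, the change of low 1 alone was 3.05 (adjusted p = 0.025, limma). Ugt1a6, which conjugates planar phenols, had 3.24, 3.04 and 3.22 in low animals and 2.07, 2.06 and 2.31 in controls, 2.03-fold higher (adjusted p = 0.015, limma). Ugt2b35, which the array design names Ugt2b4, had 6.36, 6.07 and 6.22 in low animals and 5.43, 5.47 and 5.48 in controls, a difference of 0.75 ± 0.10 on the log2 scale (SE, n = 3 each; adjusted p = 0.034, limma). For both genes the groups did not overlap. Ugt1a6 lost its call without low 2, low 3, control 1 or control 2 (adjusted p up to 0.13), and Ugt2b35 without any of the 6 but low 1 (up to 0.20); near-identical family members may share signal on these probes.

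Glutathione S-transferases and other NRF2 targets followed. Gstm1, a cytosolic transferase that conjugates glutathione to electrophiles, had log2 signals of 3.15, 3.39 and 3.24 in low animals, against 0.92, 1.37 and 1.63 in controls, and was 3.89-fold higher (log2 1.96 ± 0.15, SE, n = 3 each; adjusted p = 0.0015, limma). Gstp1, the pi-class transferase, had 7.24, 7.29 and 7.24 in low animals and 6.18, 6.56 and 6.52 in controls, 1.78-fold higher (adjusted p = 0.015, limma). Control 1 was the lowest control for both genes, as it was for every named gene called higher except Ugt1a6. For every named gene called lower it was the highest control. In all of these it was the control farthest from the low animals. The probe that stood for Gstp1 was designed on the transcript once named Gstp2; the probe designed on Gstp1 gave a larger log2 change of 1.38 (adjusted p = 0.0016 with every probe tested on its own, limma). Nqo1, a quinone reductase and a standard NRF2 target, had -2.02, -1.94 and -1.83 in low animals, against -2.61, -2.51 and -2.43 in controls, a log2 change of 0.59 ± 0.09 (SE, n = 3 each; adjusted p = 0.045, limma). Pir, which encodes pirin, an iron-binding nuclear protein, had -0.49, -0.47 and -0.45 in low animals and -1.51, -1.20 and -1.22 in controls, 1.79-fold higher (adjusted p = 0.0095, limma). Gstm1 kept its call in all 6 fits without an array; Gstp1 and Pir lost theirs without low 2 or low 3 (adjusted p up to 0.11 and 0.055), and Nqo1 without any but low 1 (up to 0.24). With slide as a block these 4 were not called (log2 changes of 1.85, 0.82, 0.50 and 0.82 for Gstm1, Gstp1, Nqo1 and Pir; adjusted p from 0.10 to 0.36).

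The rest of the NRF2 and glutathione list gave no further calls. Of 31 measured members, 3 were called higher and 0 lower (0.0578% and 0.0434% of all tested genes). In 19 all low animals were above all controls (11% of all tested genes) and in 0 the reverse (8.81%, and 19.8% in either direction). The median log2 change was 0.13, against 0.01 over all tested genes. The median was 0.13, 0.13 and 0.14 in low 1, 2 and 3, so the animals were alike. Members not called included the epoxide hydrolase Ephx1 (log2 change 0.30), the sulfiredoxin Srxn1 (0.31) and the aldo-keto reductase Akr1b8 (0.45), with adjusted p from 0.14 to 0.53 (limma). Glutathione synthesis was not among the calls: Gclc, the catalytic subunit of its rate-limiting enzyme, differed by 0.05 ± 0.09 (SE, n = 3 each; adjusted p = 0.89, limma), Gclm, its modifier subunit, by 0.17 ± 0.20 (well above background on 2 of 3 low and 1 of 3 control arrays), and Gss, the next enzyme, by -0.04 ± 0.06. The oxidative stress gene Hmox1 (haem oxygenase) had log2 signals of 0.02, 0.21 and 0.12 in low animals and 0.03, -0.04 and 0.04 in controls, which overlap (adjusted p = 0.81, limma). Txnrd1, a thioredoxin reductase, overlapped too, with 2.86, 2.86 and 2.90 in low animals and 2.82, 2.83 and 2.91 in controls.

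Of 16 measured genes of drug conjugation and export, 3 glucuronosyltransferases were called higher and 0 lower (0.0578% and 0.0434% of tested genes). The groups did not overlap for 5 higher and 1 lower (11% and 8.81% of tested genes), with a median change of 0.10. The export pump Abcc2 (MRP2), which moves glucuronide and glutathione conjugates across the luminal membrane, had 1.83, 1.86 and 2.11 in low animals, against 1.27, 1.23 and 1.46 in controls. Every low animal lay above every control, yet the change of 0.62 ± 0.11 (SE, n = 3 each) did not pass the test (adjusted p = 0.098, limma). The pumps Abcc4 and Abcb1b differed by 0.04 ± 0.09 and 0.03 ± 0.12 with overlapping groups. Of 16 measured uptake carriers 0 passed in either direction. With 0.101% of all tested genes called, this does not set them apart. The organic anion transporters Slc22a6 and Slc22a8, which carry cephaloridine into proximal tubule cells, differed by 0.09 ± 0.10 and 0.14 ± 0.10 (SE, n = 3 each, adjusted p = 0.81 and 0.68, limma).

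The remaining higher genes with names were Alas1, Acaa1b, Rgs11 and the probe named Atad1. Alas1, the rate-limiting enzyme of haem synthesis, had 5.67, 5.85 and 5.81 in low animals and 5.03, 5.07 and 5.22 in controls. It was 1.59-fold higher (log2 0.67 ± 0.07, SE, n = 3 each, adjusted p = 0.0075, limma). The call was kept in all 6 fits without an array, narrowly in some (adjusted p up to 0.0497, limma). Alas1 was the only call among 17 genes of metal and iron handling (0.101% of all tested genes were called). In 7 of the 17 all low animals were above all controls (11% of tested genes). The biliverdin reductase Blvrb (0.34) and the transferrin receptor Tfrc (0.38) were 2 of these 7. Acaa1b, a peroxisomal thiolase, had 7.01, 6.74 and 6.77 in low animals and 6.18, 6.27 and 6.26 in controls, 1.52-fold higher (adjusted p = 0.015, limma). Its mitochondrial relative Acaa2 differed by 0.47 ± 0.09 and was not called (adjusted p = 0.11, limma). Acaa2 belongs to a list of 23 measured genes of fatty acid oxidation and PPARA targets, with a median of 0.02. Of these 0 were called (0.101% of all tested genes were). Rgs11, a regulator of G-protein signalling, was 1.49-fold higher (adjusted p = 0.034, limma). The Atad1 signal was 2.73-fold higher (log2 1.45 ± 0.12, SE, n = 3 each; adjusted p = 0.0019, limma), but its probe was designed on a transcript of another name, and the probe designed on the Atad1 transcript itself gave 0.06 (adjusted p = 0.86 with every probe tested on its own), so the change is not assigned to Atad1. Acaa1b lost its call without control 1 or control 2 (adjusted p up to 0.13, limma) and Rgs11 without any array but low 1 (up to 0.20). With slide as a block, which rests on low 1, the log2 changes of Alas1, Acaa1b, Rgs11 and the Atad1 probe were 0.56, 0.77, 0.50 and 1.36. As stated above, that fit called only Acaa1b of these.

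**Figure D2:**
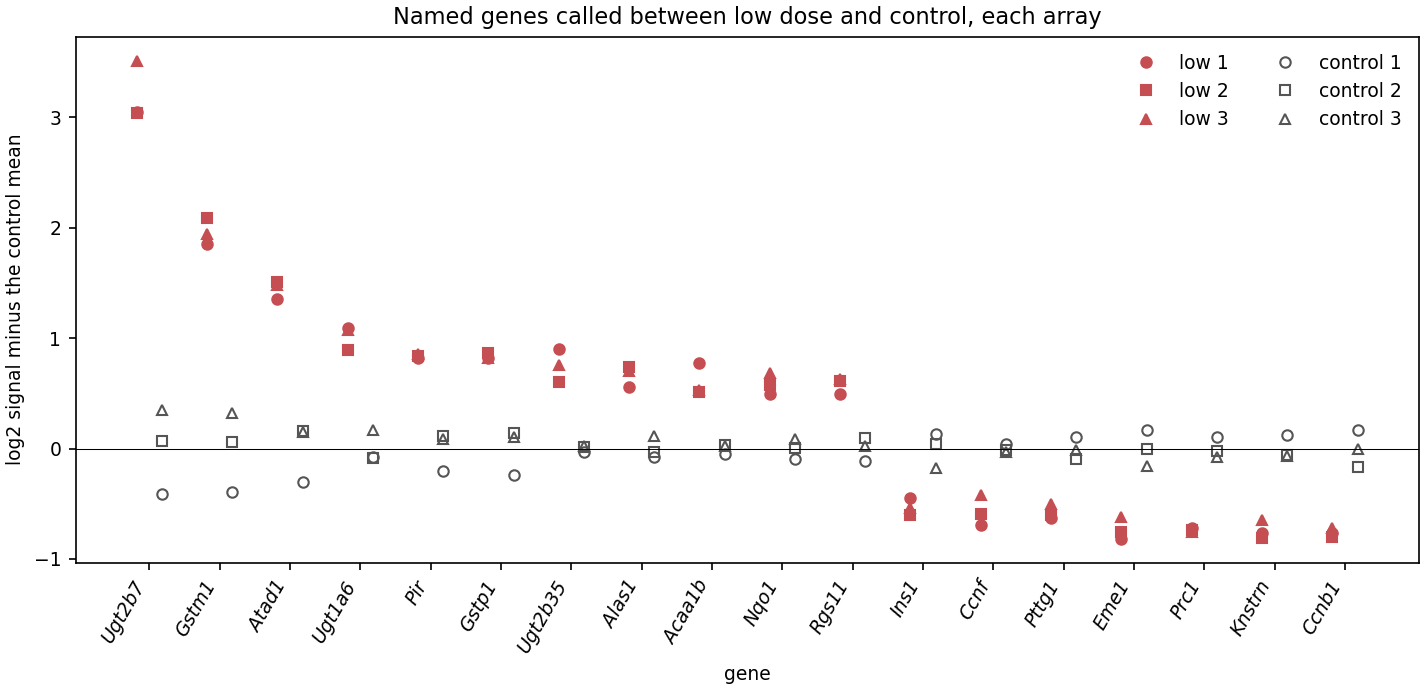
The 18 named genes called between low dose and control; the y axis gives the log2 signal of each array minus the mean of the 3 controls, with low animals as filled red and controls as open grey symbols (circle, square and triangle for replicates 1, 2 and 3). In all 18 the low and control arrays do not overlap, which was a condition of their choice (19.8% of all tested genes did not overlap). The changes run from 9.19-fold higher for Ugt2b7 to 1.70-fold lower for Ccnb1.

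Genes of mitosis were lower at 150 mg/kg. Ccnb1 (cyclin B1, which drives entry into mitosis) had log2 signals of -0.66, -0.69 and -0.61 in low 1, 2 and 3, against 0.28, -0.05 and 0.10 in controls 1, 2 and 3. The 3 low animals lay close together below all controls, and the gene was 1.70-fold lower (log2 -0.76 ± 0.11, SE, n = 3 each; adjusted p = 0.034, limma); a second Ccnb1 probe gave -0.80. Prc1, which bundles microtubules of the central spindle, had -3.41, -3.42 and -3.44 in low animals and -2.59, -2.71 and -2.77 in controls, 1.67-fold lower (adjusted p = 0.034, limma). Knstrn, a spindle and kinetochore protein, was 1.67-fold lower, Pttg1 (securin, an inhibitor of chromatid separation) 1.49-fold lower, Ccnf (cyclin F) 1.49-fold lower and Eme1, a subunit of a DNA junction endonuclease, 1.66-fold lower, with adjusted p of 0.034 to 0.045 (limma). The promoters of Ccnb1, Prc1, Pttg1 and Ccnf are those printed above. Ccnf was well above background on 1 of 3 low arrays and on all 3 controls, so its level in low animals is close to the detection limit. Each of these 6 calls depended on single arrays: Ccnb1, Knstrn and Pttg1 were lost without any 1 of the 6 arrays, Prc1, Eme1 and Ccnf held in 1 of the 6 such fits, the highest adjusted p being 0.24, and with slide as a block the log2 changes were -0.63 to -0.82 with adjusted p of 0.10 to 0.25. With normexp background correction of the mean signal the change was smaller for Prc1 (-0.40, still called), Eme1 (-0.23, adjusted p = 0.17, limma) and Ccnf (-0.21, adjusted p = 0.064).

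Beyond the called genes, the list as a whole lay on one side. Of 23 measured mitosis genes 2 were called lower (Ccnb1 and Prc1) and 0 higher (0.0434% and 0.0578% of tested genes). In 21 all low animals were below all controls (8.81% of tested genes) and in 0 the reverse (11%). The median log2 change was -0.62, against 0.01 over all tested genes, and it was -0.56, -0.61 and -0.57 in low 1, 2 and 3. Of the 23 genes 22 were below all controls in low 1 (26.9% of tested genes were), 21 in low 2 (27.2%) and 21 in low 3 (26.2%). Members not called included the proliferation marker Mki67, at -2.42, -2.41 and -2.39 in low animals and -1.66, -1.90 and -1.75 in controls (adjusted p = 0.14, limma), the kinase Cdk1 (log2 change -0.77, adjusted p = 0.098), the topoisomerase Top2a (-0.67, adjusted p = 0.14) and the spindle checkpoint kinase Ttk (-0.86, adjusted p = 0.25). The 2 exceptions were the kinase Aurkb, which differed by -0.05 ± 0.05, and the kinesin Kif11, by 0.08 ± 0.08 (SE, n = 3 each), both with overlapping groups. The summed linear signal of the list, as log2, was 3.88 to 3.97 in low animals, against 4.31 to 4.49 in controls. In bulk tissue, fewer dividing cells and less of these RNAs per cell cannot be told apart.

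Genes of DNA replication gave no calls. Of 25 measured members of that list 0 passed in either direction, against 0.101% of all tested genes. The groups did not overlap for 2 higher and 3 lower (11% and 8.81% of tested genes), and the median was -0.04. Pcna, the sliding clamp of DNA polymerases, had 1.95, 1.98 and 2.01 in low animals and 1.92, 2.01 and 2.13 in controls, and Mcm2, a subunit of the replicative helicase, -0.08, -0.07 and 0.01 in low animals and -0.05, -0.07 and -0.01 in controls. For both genes the groups overlapped. Of the p53 targets 0 of 15 were called, and Cdkn1a, the cell cycle inhibitor p21, differed by 0.14 ± 0.21 (SE, n = 3 each; adjusted p = 0.87, limma). The last named call, lower, was the probe named Ins1 (insulin 1), with -1.93, -2.08 and -2.02 in low animals and -1.35, -1.44 and -1.66 in controls. Its log2 change was -0.53 ± 0.07 (SE, n = 3 each, adjusted p = 0.034, limma). The call was lost without low 2, low 3, control 1 or control 2 (adjusted p up to 0.20, limma). With slide as a block, which rests on low 1, the change was -0.45. What this probe measures in kidney cortex was not tested.

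**Figure D3:**
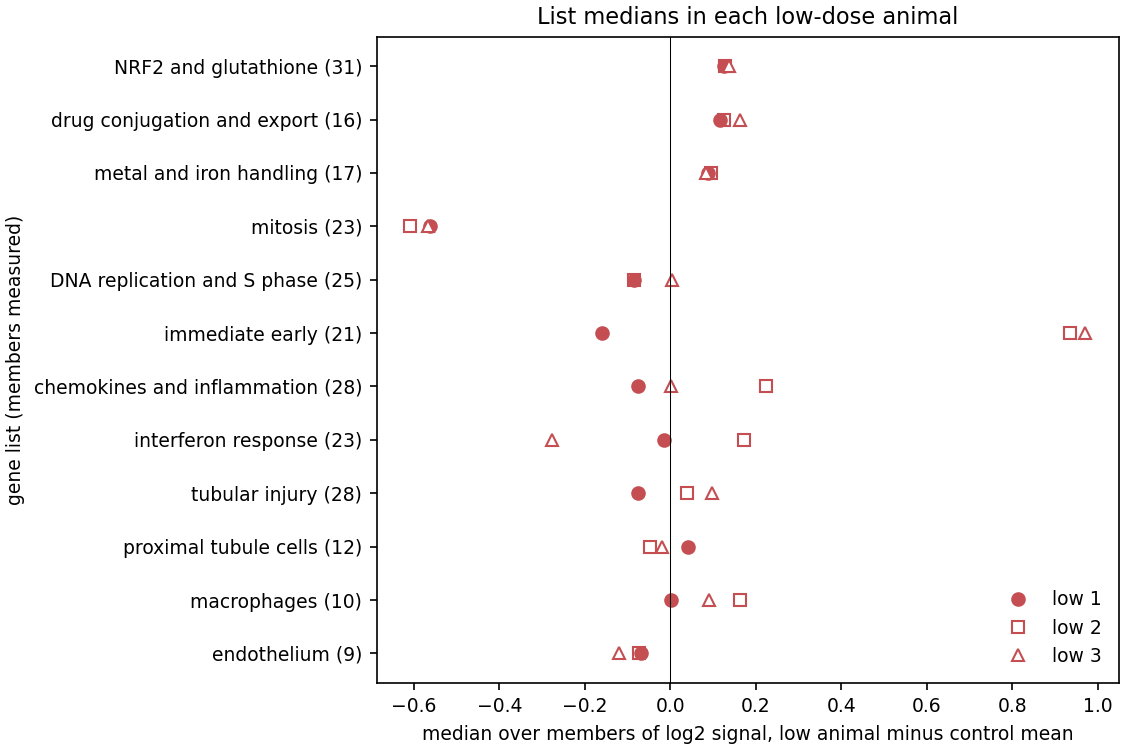
Median over the members of each gene list of the log2 signal in a low-dose animal minus the control mean (x axis), for low 1, 2 and 3; the number of members measured is in parentheses. The mitosis medians lie together at -0.56, -0.61 and -0.57 and the NRF2 and glutathione medians at 0.13, 0.13 and 0.14, while the immediate early medians are -0.16 in low 1 against 0.94 and 0.97 in low 2 and low 3.

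The low-dose animals differed from each other in immediate early genes. Fos had log2 signals of -2.68, 2.12 and 2.16 in low 1, 2 and 3, against -2.76, -2.06 and -3.07 in controls 1, 2 and 3: low 2 and low 3 were 26.9-fold and 27.7-fold above the control mean, and low 1 was among the controls. Egr2, a zinc finger factor, had -3.59, -0.58 and -0.49 in low animals and -3.90, -2.81 and -4.49 in controls. Nr4a1, an orphan nuclear receptor, had 2.76, 4.80 and 4.71 in low animals and 3.25, 3.56 and 2.74 in controls. The same division ran through the list: 17 of 21 members were above all controls in both low 2 and low 3 but not in low 1 (8.47% of tested genes were), and 1 of 21 was above all controls in low 1 (32.2% of tested genes were). The 4 members without it were Gadd45b, Klf6, Jund and Fosl1. Middle 1 and middle 2, the other arrays of the slides of low 2 and low 3, had Fos at -2.87 and -1.89 and 0 and 2 of 21 members above all controls. None of the 21 was called (0.101% of all tested genes were). Fos had a log2 change of 3.16 ± 1.06 (SE, n = 3 each, adjusted p = 0.35, limma). Leaving out low 1, 2 and 3 in turn gave Fos adjusted p of 0.0018, 0.59 and 0.74 (limma), the first without the animal that lacked the high signal. With slide as a block, which rests on low 1, the Fos change was -0.05.

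The next 10 genes were those with the largest standard deviation among the low arrays, of nameable genes well above background on all 12 arrays. Of these, Fos (2.78, against 0.51 among controls), Egr1, Egr2, Ccl3, Nr4a1, Cxcl1 and Rgs1 were above all controls in both low 2 and low 3. So were 4032 of the 20760 tested genes, and a choice by spread favours genes in which some low arrays stand apart. The macrophage chemokine Ccl3 had -0.78, 1.61 and 1.26 in low animals and -0.68, -0.42 and -1.35 in controls. The neutrophil attractant Cxcl1 had -1.72, 1.29 and -0.60 in low animals and -2.56, -1.05 and -3.08 in controls, so the controls were spread widely too. The other three were high in 1 animal: the neuropeptide gene Cort in low 3 (-2.21, against -4.45 and -4.50 in low 1 and low 2), the kinesin Kif26a in low 2 (-1.72, against -3.69 and -4.06 in low 1 and low 3) and Havcr1 in low 3. Over all tested genes the median standard deviation was 0.073 among low and 0.066 among control animals, and 416 and 279 genes exceeded 0.5. Markers of macrophages were not called in any of 10 members (0.101% of all tested genes were). Their summed signal, as log2, was 5.50, 5.63 and 5.52 in low 1, 2 and 3 and 5.33 to 5.54 in controls. In low 2, 9 of the 10 were above all controls (33.8% of tested genes were), against 2 in low 1 (32.2%) and 5 in low 3 (34.8%). S100a9 was the only 1 of 7 neutrophil markers measured and overlapped between groups. The part of infiltrating cells in these values was not tested.

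**Figure D4:**
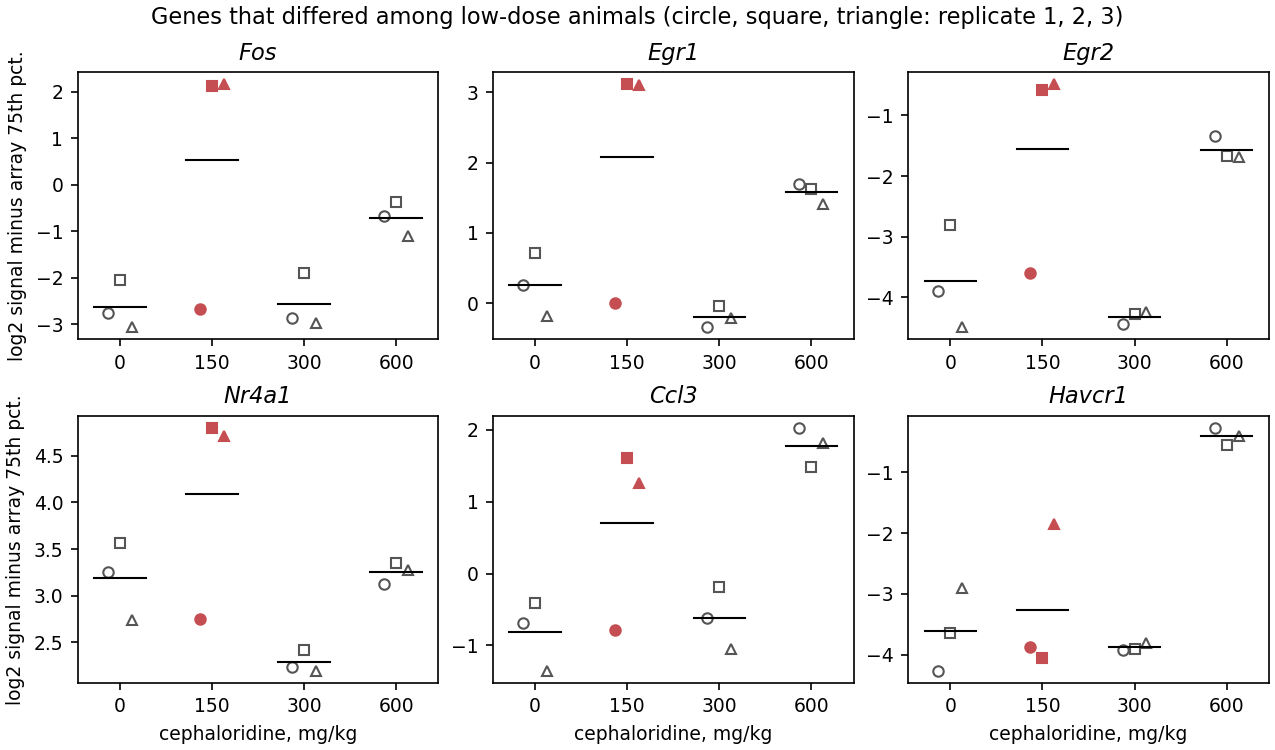
Log2 signal minus the array's 75th percentile (y axis) of 6 genes against the dose of cephaloridine in mg/kg (x axis); symbols are animals (circle, square and triangle for replicates 1, 2 and 3, low dose in red) and lines are group means. Fos, Egr1, Egr2, Nr4a1 and Ccl3 are high in low 2 and low 3 and at the control level in low 1, and Havcr1 is high in low 3.

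Interferon response genes split the low animals in another way. Of 23 measured, 16 were above all controls in low 2 (33.8% of tested genes were), 18 were below all controls in low 3 (26.2%), and low 1 had 7 above and 6 below. Mx1, an antiviral GTPase, had -2.35, -1.82 and -2.99 in low animals, against -1.89, -2.42 and -2.35 in controls, and Irf7, a transcription factor of this response, 1.41, 2.02 and 1.05 in low animals, against 1.88, 1.69 and 1.42 in controls. The groups overlapped for both, and 0 of the 23 genes were called (0.101% of all tested genes were).

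Injury genes were not called at this dose. Of 28 measured genes of tubular injury 0 passed in either direction, the groups did not overlap for 1 higher and 2 lower (11% and 8.81% of tested genes), and the median was 0.04. Havcr1, which encodes the injury marker KIM-1 on proximal tubule cells, had -3.87, -4.05 and -1.86 in low animals and -4.26, -3.64 and -2.90 in controls: low 3 was 3.35-fold above the control mean and the other low animals were within the controls' range (adjusted p = 0.87, limma). Lcn2, the neutrophil gelatinase-associated lipocalin, was well above background in 1 of 3 low animals and in 0 of 3 controls, with its highest value, -3.74, in low 3. Spp1 (osteopontin) and Clu (clusterin) were also highest in low 3, at 5.77 and 2.76, against 4.79 and 2.23 in low 1 and 5.25 and 2.24 in low 2, and 5.03 to 5.26 and 2.21 to 2.41 in controls. Chemokine and inflammation genes gave 0 calls of 28, heat shock genes 0 of 17 and ER stress and ATF4 targets 0 of 24. With 0.101% of all tested genes called, 0 calls do not set these lists or the injury list apart from other genes.

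Markers of the main cell types were not called, as most genes were not (0.101% of all tested genes passed). The 12 proximal tubule markers had 0 calls and a median change of -0.02, and their summed signal, as log2, was 10.74 to 10.84 in low animals and 10.78 to 10.83 in controls. Endothelial markers had 0 calls of 9 and a median of -0.12, with 8 of 9 below the control mean (9065 of 20760 tested genes were). All 7 thick ascending limb markers were above it (11695 of 20760 tested genes were), by 0.04 to 0.14, with 0 calls. So were 6 of 7 intercalated and 6 of 7 principal cell markers, with medians of 0.15 and 0.13 and 0 calls. Ribosomal protein genes had 0 calls of 60 and a median of 0.03.

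Set beside the higher doses, the genes called at 150 mg/kg took different courses. Across 0, 150, 300 and 600 mg/kg, Ugt2b7 averaged -1.44, 1.76, 3.34 and 3.82, Nqo1 -2.52, -1.93, -1.07 and -0.32, and Abcc2 1.32, 1.94, 3.43 and 4.32 (log2 signals, n = 3 each). The step from 150 to 300 mg/kg was tested directly: 48 of 20760 genes differed (0.231%), 40 higher (0.193%) and 8 lower (0.0385%) at 300 mg/kg (limma, adjusted p under 0.05), and 5 of the genes named here were among the higher ones. These were Abcc2 (log2 1.49, adjusted p = 0.00078), Nqo1 (0.86, adjusted p = 0.0036), Ugt2b7 (1.58, adjusted p = 0.017), Pir (0.54, adjusted p = 0.049) and Alas1 (0.41, adjusted p = 0.0498). With slide as a block, which here compares animals on shared slides, Abcc2, Nqo1 and Ugt2b7 kept the call (adjusted p = 0.0049, 0.032 and 0.046) and Pir and Alas1 did not (0.079 and 0.099); Ugt2b7 lost it without low 2 or middle 2 (0.090 and 0.096). Gstm1 averaged 1.30, 3.26, 3.62 and 3.31 and Ugt1a6 2.15, 3.17, 3.15 and 3.02 over the same doses; neither differed between 300 and 150 mg/kg by the test (log2 0.36 and -0.02, adjusted p = 0.29 and 0.95, limma). Mitosis genes had a median change against control of -0.62, -0.71 and 0.15 at 150, 300 and 600 mg/kg, and the medians of DNA replication genes were -0.04, 0.21 and 1.16. These changes share the 3 control arrays.

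**Figure D5:**
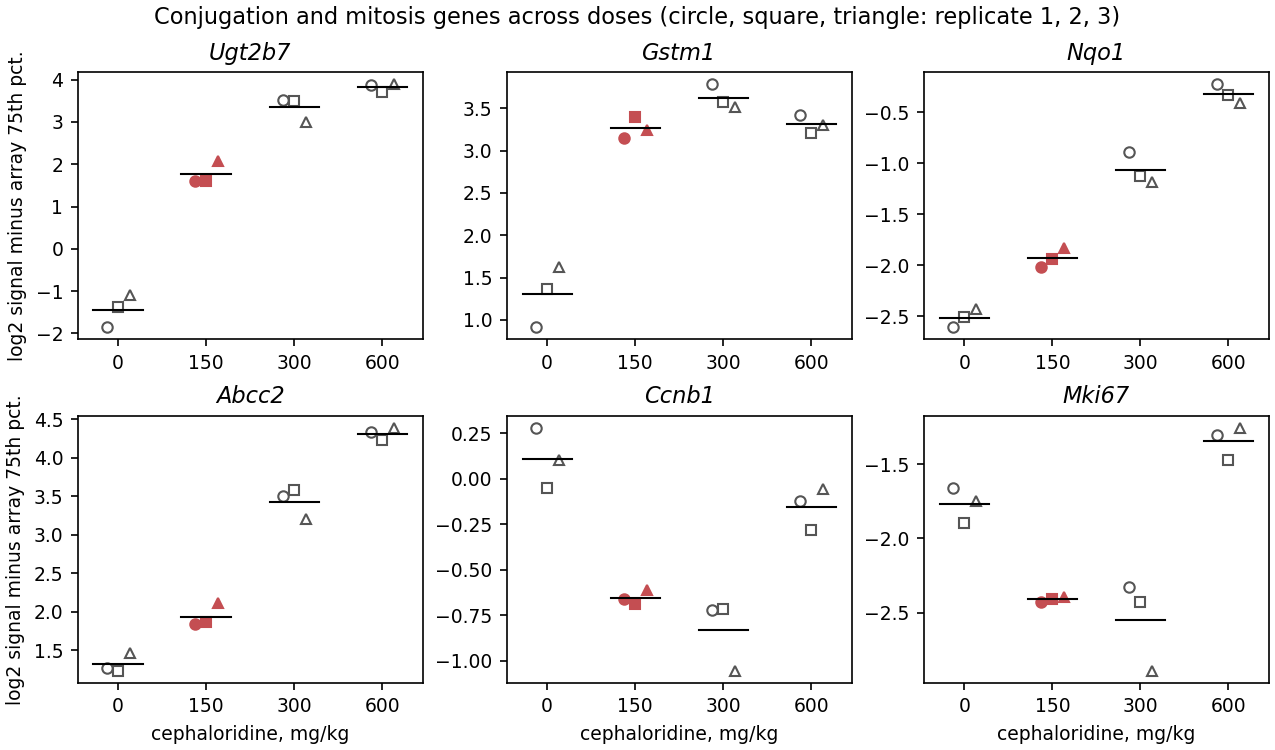
Log2 signal minus the array's 75th percentile (y axis) of 6 genes against the dose of cephaloridine in mg/kg (x axis), with animals as symbols (circle, square and triangle for replicates 1, 2 and 3, low dose in red) and group means as lines. Ugt2b7, Nqo1 and Abcc2 stand higher at each dose, Gstm1 averages 3.26, 3.62 and 3.31 at 150, 300 and 600 mg/kg, and Ccnb1 and Mki67 are lower at 150 and 300 mg/kg than at 0 mg/kg.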

How the data were processed

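Per the file headers, the authors extracted single-colour signals with Feature Extraction 9.1.3.1, with local background subtraction; the deposited processed, mean and background signals are linear intensities, and spot flags are 0 or 1. The authors also deposited a table of linear ratios, in which each processed signal, floored at 5, is divided by a constant of its array (within 0.1% for probes spotted once). It served as an alternative, as did the mean signals.

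Here, log2 processed signals were averaged over unmarked spots of a probe and reduced by the array's 75th percentile. Of 41012 probes, 10735 were named through their accession, 5571 by symbol and 3729 by an older symbol; 20977 kept the name in the file. The probe with the highest mean stood for a gene. Tested were 20760 genes that at least 1 group showed well above background on each of its 3 arrays; 19331 were so on all 12 arrays. With limma 3.58.1 (R 4.3.3), 1 mean per group was fitted to all 12 arrays (8 residual degrees of freedom), two-sided, with Benjamini-Hochberg adjustment. On simulated data 67 of 100 genes changed 1.5-fold and 90 of 100 changed 2-fold were recovered, with 13 false calls among 20760 genes. The simulated noise had no slide effect, and many more genes were changed than the 21 called here. These shares therefore do not give the recovery in the real comparison. The number of arrays limits the precision; labels name separate animals. With 3 animals a group, each p-value sets a difference of group means against a spread between animals. That spread is pooled over all 4 groups and moderated over genes by limma.

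Named genes were up to 15 called per direction without overlap, 2 per list and direction, a set of 54 genes, and the 10 with the largest spread among low arrays; other list members were named after their values were seen. Members, lists and genes were chosen with earlier results of these data known. Replicate numbers were not used to pair the samples in the main fit, and slides were read from the file headers.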

Additional observations from a re-analysis of the deposited data

How the results depend on the processing

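All 21 called genes kept their sign in every setting that gave them a value. Under normexp 20 had one, and 19 under the stricter dim filter. Several settings could not change a sign, as they left the log2 change itself as it was. These were the dim filters, every probe on its own, the 6 arrays alone, the replicate block, and trended and robust moderation. Slide as a block and slide 1 alone gave the same estimate. For probes spotted once, the authors' value table differed little from the main values beyond its floor at 5, as scaling removes the constant of each array. Its count was therefore bound to lie close to the main one. The number of calls was 17 to 25 with quantile or median scaling, the authors' value table, every probe on its own or the mean of a gene's probes. It was in the same range with only probes well above background everywhere or slide as a random block, and 17 with a 1.5-fold limit. It was 42 with normexp on the mean signal, 42 with trended and robust moderation, 133 with array weights, 12 with no filter on dim probes, 4 with a 2-fold limit, 7 with slide as a block, 8 with scan day as a block, 1 within slide 1 alone and 0 with only the 6 low and control arrays (2544 at an unadjusted p under 0.05, limma). The calls split into 12 higher and 9 lower in the main fit, 16 and 26 with normexp, 19 and 23 with trended and robust moderation, 52 and 81 with array weights and 11 and 1 without the filter. Leaving out 1 array gave 5 to 46 calls: 46 without low 1, 5 without low 2, 7 without low 3, 6 without control 1, 10 without control 2 and 15 without control 3. The cause was not tested.

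Deviations from the group mean of same-numbered low and control animals had correlations of -0.02, 0.09 and 0.04. For middle and low animals they were 0.08, -0.225 and -0.05. So few values cannot exclude a pairing by number. With a replicate block the count was 9 for low against control and 18 for middle against low. The 48 calls of middle against low became 12 to 90 when 1 array was left out (90 without low 1 or middle 1, 13 without low 2, 21 without low 3, 12 without middle 2). Of 395 values of the 18 named calls under other settings, 241 stayed called and 154 did not, with 0 reversed. Several of these settings could not change a sign, as said above. A change of sign in a gene called under neither setting was not counted as a reversal. The median of the mitosis list ran from -0.65 to -0.44 over its settings, that of the NRF2 and glutathione list from 0.11 to 0.14, and that of the immediate early list from -0.16 (slide as a block) to 0.95 (without low 1).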

Other observations

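The genes here were chosen after their values were seen, from the 7 called with slide as a block, which sets low 1 alone against the controls, so no p is given for that animal. Entrep1 had log2 signals of -2.54, -4.05 and -3.98 in low 1, 2 and 3 and -4.18, -4.09 and -4.02 in controls. Gadd45g, a growth arrest gene, had 4.85, 3.27 and 3.58 in low animals and 3.45, 3.60 and 3.55 in controls. Low 2 and low 3 lay at or near the control levels for both genes, and neither passed the test of all 3 low animals (adjusted p = 0.57 and 0.74, limma). Ugt2b15, another glucuronosyltransferase, had 2.52, 2.12 and 2.28 in low animals and 1.40, 1.44 and 1.53 in controls, without overlap, and did not pass that test either (adjusted p = 0.072).

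One unnamed transcript, chosen after its values were seen, was well above background on all 3 low arrays and on none of the controls, with log2 signals of -2.33, -3.66 and -4.78 in low animals, against -6.99, -6.88 and -7.10 in controls. It was at least 2.50-fold higher at 150 mg/kg and did not pass the test (adjusted p = 0.055, limma). Of the low and control groups, only the low one met the rule for entering the test. Both values therefore follow a choice made on the group with the high signal and are description only. Signals of the transcript were -7.26, -6.41 and -6.07 in middle and -7.37, -7.24 and -6.66 in high animals.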
